A study of Mus musculus with 4 samples.

Results

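Thrombospondins, tenascins and their companions in the extracellular matrix were followed in cardiac mesenchymal progenitors (CMPs), untreated or carrying the reprogramming factors Oct4, Sox2, Klf4 and c-Myc (OSKM). The genes were Thbs1, Thbs2, Thbs3, Thbs4, Tnc, Tnxb, Postn, Fn1, Dcn and Lum. They were listed by name, and every array probe that carries one of these names was used. This gave 12 probes for 10 of the 16542 named genes tested. These genes and the lists below were chosen with earlier results of these data known. Counts set beside the share of all genes are therefore a description. CMPs here are Sca-1-positive cells from the atria of adult wild-type C57BL/6 mice, grown in medium with 10% serum and, by the labels, 40 ng/ml bFGF. The study's methods give a lower bFGF concentration for this growth medium. RNA came from CMPs without treatment (labelled day 0) and from those given OSKM by Sendai virus (OSKM-CMPs), collected on days 4, 6 and 8. Each of these 4 conditions has 1 single-colour Agilent array, with 250 ng of RNA labelled with Cy3.

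The OSKM-CMPs were moved to a reprogramming medium at day 0, by the study's methods, and no untreated culture of a later day was analysed here. The untreated CMPs also received no virus. OSKM, infection with the Sendai virus, the change of medium and time in culture therefore cannot be told apart in these data. With 1 array per condition there is no test between conditions and no p-value. Errors (±) are 1 SD from the error model of the image software, and they cover the measurement on an array but neither cultures nor RNA preparation. A level is the log2 processed signal minus the 75th percentile of its array, so that a level of 0 is that percentile. A gene is said to have risen or fallen where its level differed at least 2-fold from the control, and a difference is said to be larger than the measurement error where it exceeded 2 times the combined error of the arrays compared. In cultures read as a whole, fewer cells that make an RNA and less of that RNA per cell cannot be told apart.

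Matricellular proteins are secreted into the matrix, where they act on cells through receptors more than as structural parts. Thrombospondins bind integrins, CD36, CD47 and growth factors, and tenascins and periostin modulate how cells adhere and migrate in developing and injured tissue. Fibronectin forms the fibrils on which much of this matrix is assembled, and decorin and lumican are small leucine-rich proteoglycans that bind collagen fibrils and set their spacing. In the heart, such proteins come mainly from fibroblasts and other mesenchymal cells, and several of them are known to increase after injury.

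The 10 genes did not move as a block. At day 8, 7 of the 10 genes had risen, where 14.4% of all genes tested had, and 2 had fallen, where 11.6% of all genes had. The largest rise was that of Lum, which was 28.4-fold higher, followed by Thbs2, Dcn and Tnxb at between 7.79-fold and 8.57-fold. Tnc and Thbs1 were the genes that fell, and the difference of Fn1 was within its measurement error. One of the 7, Thbs4, was below the background threshold in untreated CMPs, and its rise could be bounded only at 1.87-fold or more, so 6 of the rises were measured on both sides.

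**Figure D1:**
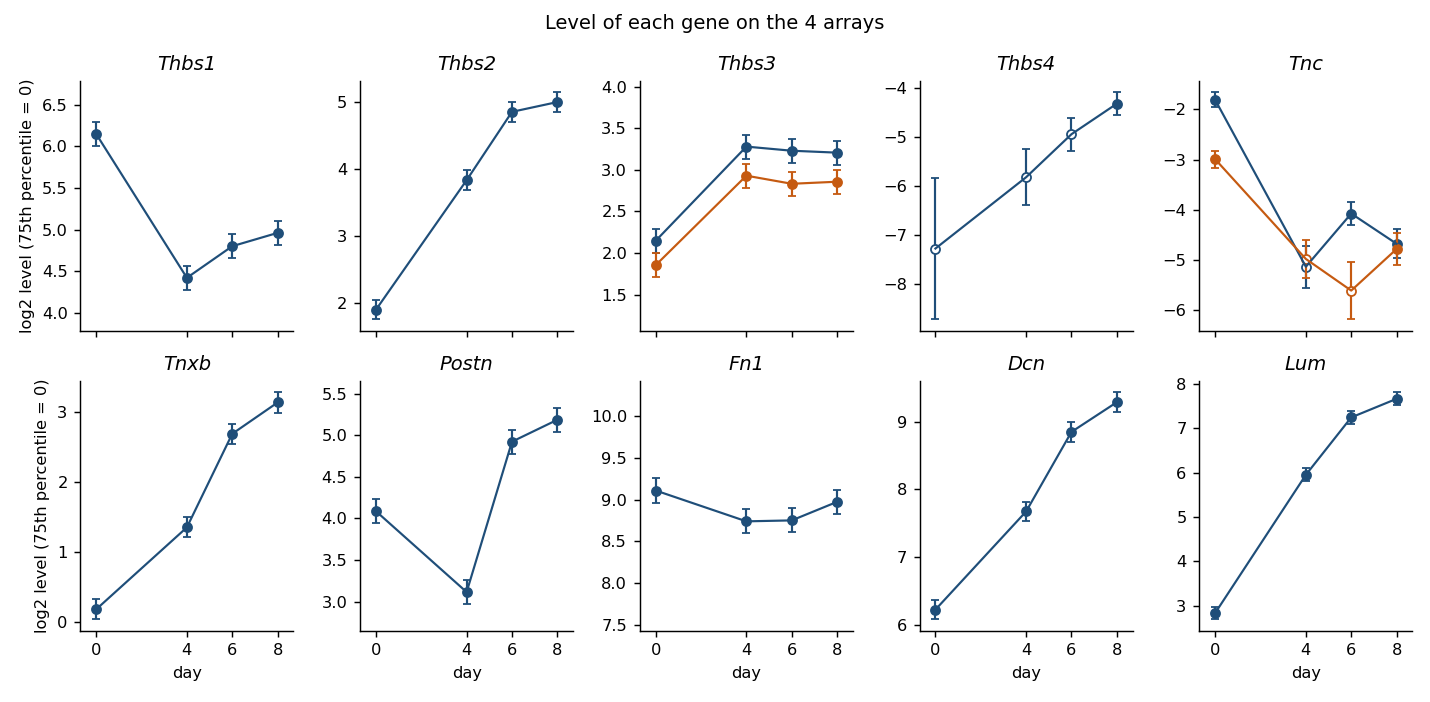
Level of each of the 10 genes on the 4 arrays (x axis, day, with untreated CMPs at day 0; y axis, log2 signal relative to the 75th percentile of the array, on a scale of its own in each panel). Each line is 1 probe, with a second colour where a gene has 2 probes, bars are 1 SD from the error model of 1 array, and open circles are values not well above background. Lum rose from 2.83 to 7.66, Thbs1 fell from 6.15 to 4.42 at day 4, and Postn had its lowest level, 3.12, at day 4.

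Thbs1 encodes thrombospondin-1, a trimeric glycoprotein known for inhibiting angiogenesis and for activating latent TGF-β. Its level was 6.15 in untreated CMPs, 4.42 on day 4, 4.80 on day 6 and 4.96 on day 8. The control array thus held the highest level, and every OSKM-CMP array lay below it. The difference from the control was -1.73 ± 0.20 at day 4 (3.31-fold lower), -1.35 ± 0.20 at day 6 and -1.19 ± 0.20 at day 8 (2.28-fold lower). From day 4 to day 8 the level came back by 0.54 ± 0.20, which was larger than the measurement error, whereas neither of the single steps between these days was. The day 8 fall did not reach 2-fold after quantile normalization, where the difference was -0.96, or with normexp background correction as well, where it was -0.91. The probe lies at chr2:117952585-117952644 on the plus strand (mm9, as are all probe positions).

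Thbs2, which encodes the other trimeric thrombospondin, moved the opposite way. Thrombospondin-2 is known for its part in collagen fibril assembly and for holding back the growth of blood vessels. Its level was 1.90 in untreated CMPs, 3.83 on day 4, 4.85 on day 6 and 5.0 on day 8. The levels climbed in the order of the days, by 1.93 ± 0.20 to day 4 and a further 1.02 ± 0.20 to day 6, and the last step, 0.15 ± 0.20, was within the measurement error. In scanner signal this was a change from 1454 to 13150, and the relative level at day 8 was 8.57-fold that of the control. At day 8, Thbs2 was thus the most increased thrombospondin among those measured above background on both arrays, while Thbs1 was 2.28-fold below its own control. The Thbs2 probe is shown because it carries the larger of these opposite changes. Its 60 bases cover 1264 bases of the genome at chr17:14804526-14805789 on the minus strand, so it crosses an intron and matches the spliced RNA.

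Thbs2 probe: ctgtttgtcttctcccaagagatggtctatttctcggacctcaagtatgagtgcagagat

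Thbs3 and Thbs4 encode thrombospondins of the pentameric subgroup, which lack some domains of the trimeric members. Thrombospondin-3 is best known from skeletal tissue, and thrombospondin-4 from tendon, muscle and stressed heart. Thbs3 had a level of 2.00 in untreated CMPs, 3.10 on day 4, 3.03 on day 6 and 3.03 on day 8. All 3 OSKM-CMP arrays were above the control and differed from each other by less than the measurement error. The rise was 1.10 ± 0.14 at day 4 and 1.03 ± 0.14 at day 8, or 2.04-fold at day 8. Its 2 probes, at chr3:89030667-89030726 and chr3:89030682-89030741 on the plus strand, gave 1.06 and 1.00 at day 8. They share 45 bases and are close to 1 measurement, so an error that treats them as independent is too small. With the median of each array as the scale, the day 8 difference was 0.76, under 2-fold, although on that scale the median of all genes also moved, to -0.30.

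Thbs4 was close to background on all arrays. Its level was -7.27 in untreated CMPs, -5.82 on day 4, -4.94 on day 6 and -4.31 on day 8. The scanner signals behind these levels were 2.52, 6.90, 13.3 and 20.6, and of the 4 arrays the day 8 array alone was well above background. The measured day 8 difference, 2.96 ± 1.47, therefore has no firm base. Set against the lowest signal that counted as well above background on the control array, Thbs4 was at least 1.87-fold higher at day 8. It passed the filter on dim probes through the day 8 array alone, so its place in a count or a median over the 10 genes rests on that array. Its probe lies at chr13:93521565-93521624 on the minus strand.

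The remaining thrombospondin, Comp (cartilage oligomeric matrix protein), is no member of the set but completes the family. Its level was 0.42 in untreated CMPs, -2.69 on day 4, -2.47 on day 6 and -2.74 on day 8, a fall of 3.16 ± 0.21 at day 8. In the family of 5, then, 3 genes had risen at day 8, beside 14.4% of all genes, and 2 had fallen, beside 11.6%, with a median of 1.03 beside -0.03 for all genes. One of the 3 is Thbs4, whose bound is under 2-fold, and 2 are left with dim values set to a floor. The fall of Comp and that of Thbs1 were already present at day 4, as were the rises of Thbs2 and Thbs3.

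Among the tenascins, Tnc and Tnxb moved apart. Tenascin-C is nearly absent from healthy adult heart and appears in development, injury and wound repair, whereas tenascin-X is a lasting component of loose connective tissue, where it stabilises collagen networks. Tnc was measured by 2 probes, which are shown because they gave different sizes for the same fall. The one that crosses an intron covers 764 bases at chr4:63674248-63675011, and the one within a single stretch lies at chr4:63643728-63643787, both on the minus strand.

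Tnc probe across an intron: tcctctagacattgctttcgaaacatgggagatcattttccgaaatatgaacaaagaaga
Tnc probe within 1 stretch: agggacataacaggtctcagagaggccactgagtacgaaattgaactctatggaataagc

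The Tnc probe across an intron had a level of -1.81 in untreated CMPs, -5.14 on day 4, -4.08 on day 6 and -4.68 on day 8. It was flagged as not well above background at day 4, where it was at least 10.0-fold lower than the control, and it was lower by 2.87 ± 0.33 (7.30-fold) at day 8. The probe within 1 stretch had a level of -2.99 in untreated CMPs, -4.98 on day 4, -5.61 on day 6 and -4.78 on day 8. This probe was not well above background at days 4 and 6, with bounds of at least 3.97-fold and at least 4.40-fold lower, and was lower by 1.79 ± 0.36 (3.46-fold) at day 8. The bounds of both probes at day 4 are set against their own signal, which was higher than the lowest signal well above background on that array, and so equal the measured folds. On both probes the control array was the highest of the 4, and the order of the 3 OSKM-CMP arrays differed between the probes. Their mean fell by 2.33 ± 0.24 at day 8. With normexp correction and an offset of 50 the mean difference at day 8 was -0.87, under 2-fold.

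Tnxb had a level of 0.18 in untreated CMPs, 1.35 on day 4, 2.69 on day 6 and 3.14 on day 8. The levels followed the order of the days, and each of the 3 steps was larger than the measurement error. The rise was 1.17 ± 0.20 at day 4, 2.51 ± 0.20 at day 6 and 2.96 ± 0.20 at day 8, or 7.79-fold at day 8. From day 4 to day 8 alone, Tnxb gained 1.79 ± 0.20. With the median of each array as the scale, the differences at days 6 and 8 were 2.38 and 2.69. On that scale the last step was within the measurement error. Its probe lies at chr17:34856502-34856561 on the plus strand. Of the other tenascins, Tnn was below background on the control array and at least 3.24-fold higher at day 8, and Tnr was below the background threshold on every array. Thus 2 of 3 measured family members had risen at day 8, beside 14.4% of all genes, and 1 had fallen, beside 11.6%.

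Postn encodes periostin, a matricellular protein of activated fibroblasts that binds integrins and promotes collagen cross-linking. It had a course of its own among the 10 genes, with levels of 4.09 in untreated CMPs, 3.12 on day 4, 4.92 on day 6 and 5.19 on day 8. The day 4 array was the lowest and the arrays of days 6 and 8 were above the control. At day 4 the difference from the control was -0.97 ± 0.20, just under 2-fold, and at day 8 it was 1.10 ± 0.20, or 2.14-fold higher. Between day 4 and day 6 the level gained 1.81 ± 0.20, and the step from day 6 to day 8, 0.26 ± 0.20, was within the measurement error. With the median of each array as the scale, the day 8 difference was 0.83, under 2-fold. The probe lies at chr3:54194840-54194899 on the plus strand and carries the accession of 1 transcript variant. Whether it also matches other variants was not tested.

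Fn1, the gene of fibronectin, changed least of the 10 genes at day 8. Its level was 9.11 in untreated CMPs, 8.74 on day 4, 8.75 on day 6 and 8.97 on day 8. The 4 arrays lay within 0.37 of each other, and no step between neighbouring days was larger than the measurement error. The scanner signal was 215200 in untreated CMPs and 206600 by day 8, and no spot was saturated on any array. With 1 probe, at chr1:71632116-71632175 on the minus strand, the splice forms of fibronectin cannot be told apart.

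Dcn and Lum encode decorin and lumican, the collagen-binding proteoglycans of the set. Decorin also binds TGF-β and holds it in the matrix. Dcn had a level of 6.23 in untreated CMPs, 7.67 on day 4, 8.85 on day 6 and 9.28 on day 8. Each step upward was larger than the measurement error, and the rise at day 8 was 3.06 ± 0.20, or 8.32-fold. Lum had a level of 2.83 in untreated CMPs, 5.95 on day 4, 7.24 on day 6 and 7.66 on day 8. Each of its steps was also larger than the measurement error, and the first, of 3.12 ± 0.20, was the largest step between neighbouring days among the 10 genes, with Tnc taken as the mean of its probes. At day 8 Lum was higher by 4.83 ± 0.20, and its scanner signal had gone from 2774 to 83170. That rise ranked 156 among the 16542 genes. With the median of each array as the scale, the differences at days 6 and 8 were 2.49 and 2.79 for Dcn and 4.28 and 4.56 for Lum. On that scale the last step of each gene was within the measurement error. The probes lie on the plus strand at chr10:96980233-96980292 for Dcn and chr10:97035210-97035269 for Lum.

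**Figure D2:**
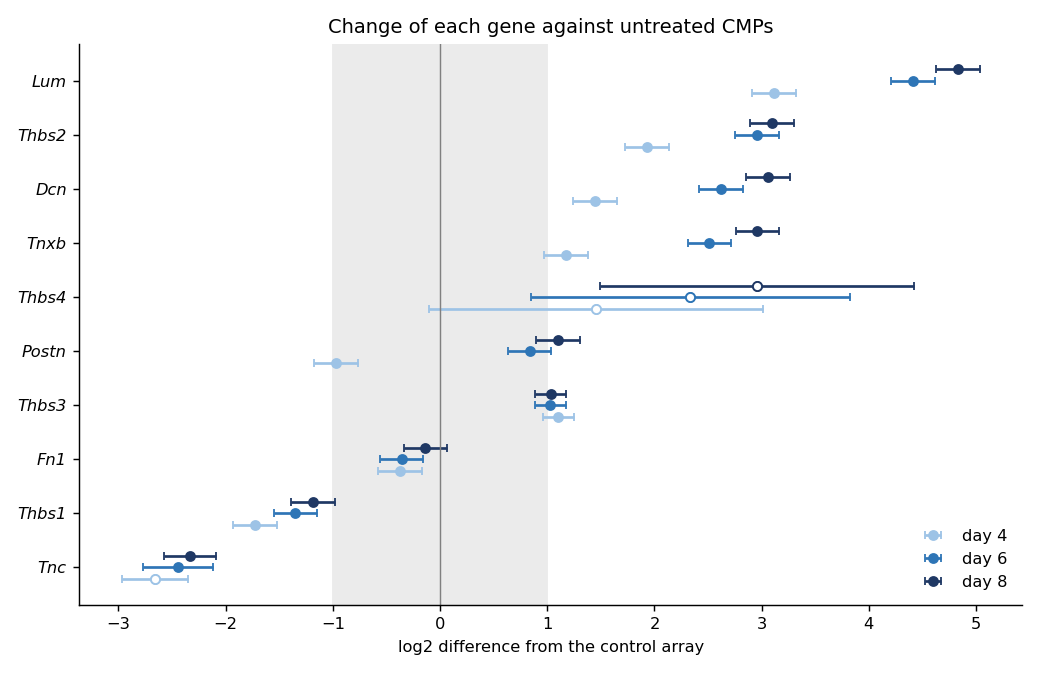
Difference of each gene from the control array (x axis, log2) at days 4, 6 and 8, with genes ordered by their day 8 value and a colour for each day. Bars are 1 SD of the difference from the error model, open circles mark a gene not well above background on one of the arrays compared, and the grey band is less than 2-fold. Lum reached 4.83 at day 8, Thbs2, Dcn and Tnxb lay between 2.96 and 3.10, and Tnc was at -2.33.

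Read over time, the 10 genes fell into unlike courses. At day 4, 6 of the 10 genes had already risen, beside 12.0% of all genes, and 2 had fallen, beside 9.59%. At day 6 the counts were again 6, beside 13.0% of all genes, and 2, beside 11.5%. Thbs4 is among the 6 on both days although it was below the background threshold on the arrays compared, and 5 genes are left without it. From day 4 to day 8, 6 genes rose, beside 4.94% of all genes, and none fell, beside 4.09% of all genes. Those 6 were Thbs2, Tnxb, Postn, Dcn, Lum and Thbs4, and 5 are left without Thbs4, which was below that threshold at day 4 and has a bound of at least 1.82-fold. Dcn, Lum and Tnxb gained at every step, Thbs2 did so up to day 6 and Thbs3 up to day 4. The last steps of Dcn, Lum and Tnxb were within the measurement error with the array median as the scale, but not with quantile normalization. Thbs1 and Tnc had their fall by day 4. The median difference of the 10 genes from the control was 1.14 at day 4, 1.68 at day 6 and 2.03 at day 8, while that of all genes was between -0.04 and -0.01. The medians are 1.06 at day 8 and 0.57 at day 4 with dim values set to a floor, with Thbs4 at 0.90 at day 8 and 0.04 at day 4 in place of 2.96 and 1.46 and Tnc the same on both days.

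**Figure D3:**
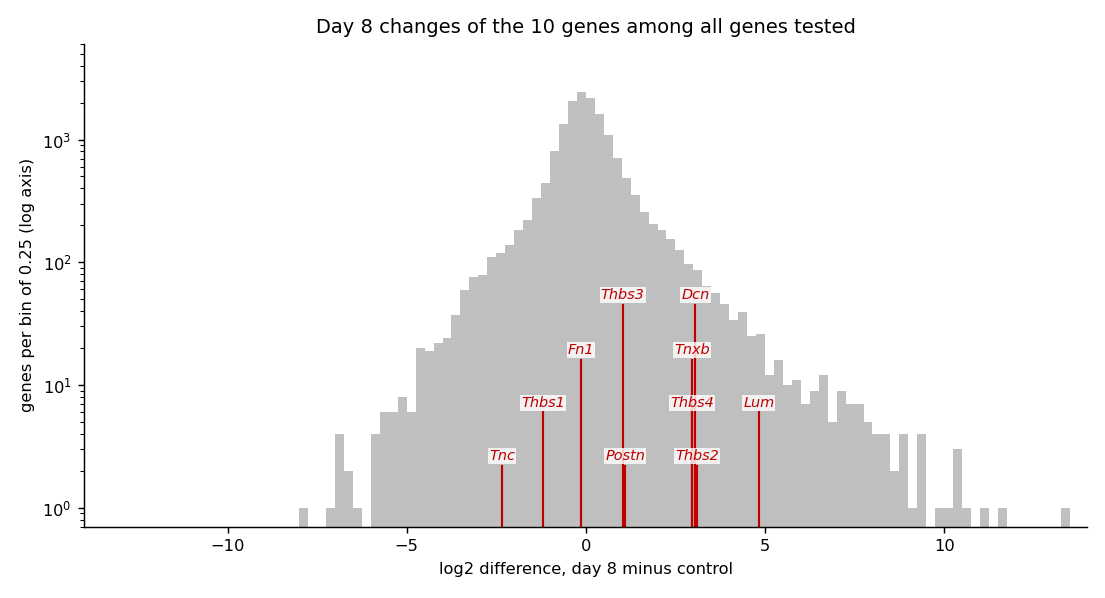
Distribution of the day 8 difference from the control over all 16542 genes (grey bars, number of genes per bin of 0.25, log axis), with the 10 genes as red lines whose height has no meaning. Lum lies at 4.83 in the upper tail, Fn1 at -0.14 near the centre, and Tnc at -2.33 in the lower tail.

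Decorin and lumican belong to the family of small leucine-rich proteoglycans, of which a list of 16 genes was followed. All 16 were measured, and 13 were well above background on all 4 arrays. At day 8, 9 of the 16 had risen, beside 14.4% of all genes, and 4 had fallen, beside 11.6%, with a median of 1.55. Dcn and Lum rose along with Epyc (epiphycan), by 7.43 ± 0.35, Aspn (asporin), by 4.00 ± 0.20, Ogn (osteoglycin), by 3.65 ± 0.20, and Omd (osteomodulin), by 3.29 ± 0.21. Biglycan, the closest relative of decorin, went the other way. Bgn had a level of 6.14 in untreated CMPs, 4.83 on day 4, 4.46 on day 6 and 4.34 on day 8, a fall of 1.80 ± 0.20. Fmod (fibromodulin) and Prelp, collagen-binding relatives of lumican, fell by 2.52 ± 0.20 and 2.11 ± 0.21, and Podnl1 fell by 1.57 ± 0.28.

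Many of the proteoglycan genes that rose stand side by side in the genome, which was looked at after their values had been seen. In the gene order of RefSeq (assembly GRCm38.p6), Dcn, Lum, Kera and Epyc stand next to each other on chromosome 10, and all 4 had risen at day 8, by between 3.06 and 7.43. Kera (keratocan) was below background on the control array and at least 42.3-fold higher at day 8. Ecm2, Aspn, Omd and Ogn stand next to each other on chromosome 13, and all 4 had risen, by between 1.73 and 4.00. Of Optc, Prelp and Fmod on chromosome 1, none had risen and 2 had fallen. Of the 5 genes that stand alone, 1 had risen, Podn, and 2 had fallen. The nearest measured neighbours outside the runs on chromosomes 10 and 13 rose less than the genes of the run, or were lower than in untreated CMPs. On chromosome 10, Btg1 was higher by 1.14 ± 0.15 and Atp2b1 by 0.32 ± 0.14, and on chromosome 13 Ippk was higher by 0.72 ± 0.20, Nol8 by 0.68 ± 0.21, while Cenpp fell by 1.92 ± 0.20 and Iars was lower, at -0.51 ± 0.20. Neighbouring genes are not independent of each other, and these counts are a description.

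**Figure D4:**
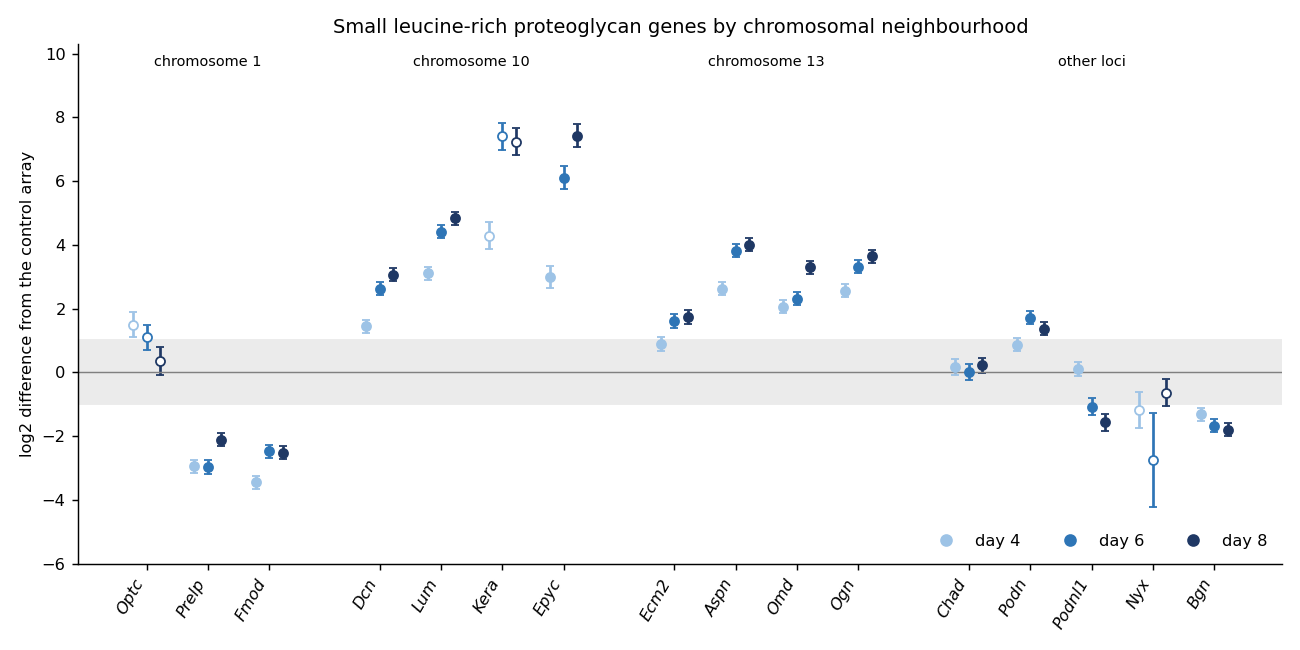
Difference from the control array (y axis, log2) for the 16 small leucine-rich proteoglycan genes at days 4, 6 and 8, ordered by chromosomal neighbourhood. Bars are 1 SD from the error model, open circles mark a gene not well above background on one of the arrays compared, and the grey band is less than 2-fold. All 4 genes of the chromosome 10 run and all 4 of the chromosome 13 run were above the band at day 8, and Prelp and Fmod on chromosome 1 were below it.

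In a wider list of 30 matricellular and adhesive glycoproteins, which includes Postn and Fn1, 25 were measured, and 8 of them (32.0%) had risen at day 8, beside 14.4% of all genes, and 2 (8.00%) had fallen, beside 11.6%, with a median of -0.06. Among those measured above background throughout, Emilin2 rose by 2.15 ± 0.20, Tgfbi, a relative of periostin, by 2.04 ± 0.20, and Srpx by 2.00 ± 0.20. Srpx2, also above background on all arrays, fell by 1.96 ± 0.14. Fndc1 fell by 2.60 ± 0.29, but its 4 probes were not all well above background in OSKM-CMPs. Of 24 genes of elastic fibres and fibronectin assembly, 5 (20.8%) had risen and 7 (29.2%) had fallen, beside the same shares of all genes, with a median of -0.28. Tgm2, the transglutaminase that cross-links fibronectin, rose by 2.86 ± 0.14, and Mfap2 and Efemp1, which bind elastic microfibrils or basement membrane, rose by 2.41 ± 0.14 and 2.08 ± 0.20. Eln (elastin) fell by 2.93 ± 0.20, the cross-linking enzyme Loxl2 by 2.30 ± 0.12, and Fbln2 (fibulin-2) by 1.95 ± 0.20. Taking all the related genes that are no members, 93 of 99 were measured, and 24 had risen and 21 had fallen at day 8, again beside 14.4% and 11.6% of all genes, with a median of -0.25.

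Receptors for the 10 proteins made up a list of 30, all measured, and 7 of them (23.3%) had fallen at day 8, beside 11.6% of all genes, while 4 (13.3%) had risen, beside 14.4%, with a median of -0.49. Sdc3 (syndecan-3) fell by 1.66 ± 0.20, and the integrin subunits Itgb5, which pairs with αv to bind vitronectin and periostin, and Itgb1, the common β subunit of the collagen and fibronectin receptors, fell by 1.36 ± 0.20 and 1.35 ± 0.14. Itga5, the fibronectin-specific partner of Itgb1, was lower by 1.31 ± 0.20, while Fn1 itself differed by -0.14 ± 0.20. Of the receptors that rose, Tlr2, through which decorin and biglycan can signal, was higher by 3.04 ± 0.07. The other three, Cd36, Stab2 and Ptprz1, were below background on the control array, and Ptprz1 had a bound of only at least 1.64-fold, so that 3 risen receptors are left with dim values set to a floor. Cd36, the scavenger and fatty acid receptor that binds Thbs1 and Thbs2, had levels of -7.36, -2.40, 0.37 and 2.39 in the order of the days and was at least 195-fold higher at day 8. Cd47, the other thrombospondin-1 receptor, differed by -0.02 ± 0.12.

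**Figure D5:**
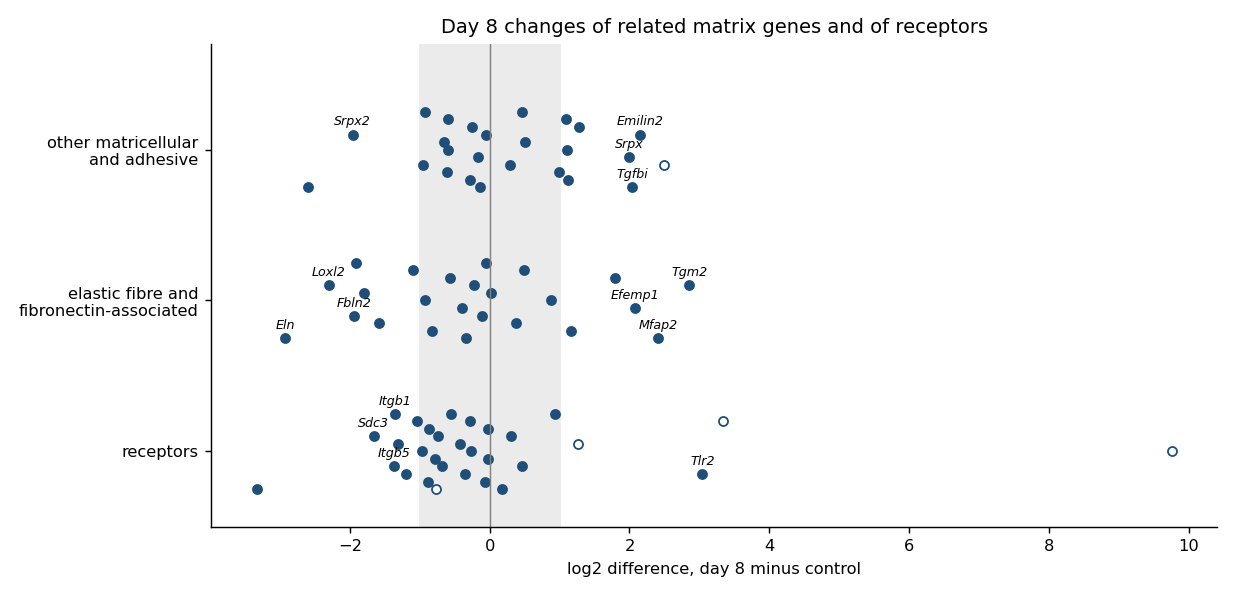
Day 8 difference from the control array (x axis, log2) for each measured gene of the lists of receptors, elastic fibre and fibronectin-associated genes, and other matricellular and adhesive glycoproteins, with vertical scatter for legibility. Named genes were picked by a fixed rule, open circles mark a gene not well above background on one of the arrays, and the grey band is less than 2-fold. Eln lies at -2.93, Tgm2 at 2.86 and Tlr2 at 3.04.

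The genes whose 3 differences from the control lay closest to those of Lum, by Euclidean distance over 13666 genes above background on all arrays, were Tspan33 (0.263), Ccl19 (0.301), Rgcc (0.308), Hdc (0.412) and Rsad2 (0.428). Closest to Thbs1 were Fat1 (0.097), Col5a2 (0.118), Smad6 (0.152), Smtnl2 (0.153) and Tgfb2 (0.164). A course of 3 differences is short, and likeness over it is a description.

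Markers of other cell states moved over the same days. All 10 mesenchymal markers were above background on all 4 arrays, with a summed signal, relative to the 75th percentile, of 1963 on the control array and 1608 to 1644 in OSKM-CMPs. Of these 10, 1 (10.0%) had risen at day 8 and 2 (20.0%) had fallen. Of all genes, 14.4% had risen and 11.6% had fallen at day 8, and each marker count given here stands beside these shares. Ly6a, the gene of Sca-1, rose by 2.69 ± 0.20, while Thy1 fell by 1.78 ± 0.20 and Eng fell by 1.19 ± 0.20. The measured level of all 7 adipocyte markers was at least 2-fold higher at day 8, although the bound for Lep was only at least 1.2-fold. Their summed signal was 4.99 in untreated CMPs, 46.9 on day 4, 158 on day 6 and 338 on day 8, and 4 of the 7 (Adipoq, Plin1, Cfd and Lep) lay below the background threshold in untreated CMPs. The summed signal of the myofibroblast and smooth muscle markers went down from 580 on the control array to 36.9, 20.3 and 19.2 on days 4, 6 and 8. This sum follows Acta2 and Tagln, the brightest of them, with control levels of 8.14 and 8.21. Acta2 was lower by 5.09 ± 0.06 at day 8, and Myh11 was not above background on any array. Of the 4 measured, 0 had risen at day 8 and 3 had fallen (Acta2, Tagln and Cnn1). Des, below background on the control array, was at least 1.78-fold higher. Leukocyte markers summed to between 0.479 and 0.798, with 2 of 5 risen at day 8 (Cd68 and Coro1a) and 1 fallen (Tyrobp, with a bound of only at least 1.57-fold lower). Endothelial markers went from 1.91 in untreated CMPs to 1.12 on day 8, with 0 of 6 risen and 3 fallen, namely Cdh5 (at least 11.9-fold lower), Tek (6.48-fold lower) and Emcn (at least 5.23-fold lower). The summed signal of the cardiomyocyte markers went from 11.9 in untreated CMPs to 4.04 on day 8. It follows Tnnt2, by far the brightest of them with a control level of 3.56, which fell by 1.60 ± 0.20. Of the 4 measured, 1 had risen at day 8 and 1, Tnnt2, had fallen. The risen one, Myh6, was below background on the control array, with a bound of only at least 1.75-fold. Nppa differed by 0.10 ± 0.10, Ryr2 was below background on both arrays, and Actc1 was so on every array. The rises of Lum, Dcn, Thbs2 and Tnxb and the falls of Thbs1 and Tnc ran alongside these marker values, whose part in them was not tested.

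Promoter windows from RefSeq (GRCm38.p6), from 250 bases before to 50 after a start, were available for 6 of the 10 genes, with 2 starts each for Postn and Tnc. They were searched on both strands, counting overlapping matches, for CACGTG, the E-box that c-Myc binds, and for CCNCNCCC, a C-rich motif of the kind bound by Krüppel-like factors such as Klf4. CACGTG was in none of the 8 windows, beside 7.15% of 32851 promoters. CCNCNCCC had 8 matches for Thbs4, 4 for Thbs3, 3 for Tnxb, 1 for each start of Tnc, 1 for one start of Postn, and 0 for the other start of Postn and for Thbs2, and 49.47% of all promoters held at least 1. Shown here, for 3 genes that rose, are the 100 bases before the start, at chr17:14694263-14694362 on the minus strand for Thbs2, chr3:89215080-89215179 on the plus strand for Thbs3 and chr17:34670435-34670534 on the plus strand for Tnxb. Capitals mark the matches to CCNCNCCC.

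Thbs2 promoter: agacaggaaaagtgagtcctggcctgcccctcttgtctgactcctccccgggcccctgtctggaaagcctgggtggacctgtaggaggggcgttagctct
Thbs3 promoter: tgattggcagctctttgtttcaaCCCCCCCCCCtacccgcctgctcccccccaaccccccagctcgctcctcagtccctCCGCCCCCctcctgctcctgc
Tnxb promoter: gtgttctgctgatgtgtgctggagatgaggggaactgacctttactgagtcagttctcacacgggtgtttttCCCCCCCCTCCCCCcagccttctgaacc

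Thbs2, which rose 8.57-fold, has no match in its window, and Thbs3, which rose 2.04-fold, has 4, all in the bases shown. A match is a run of letters and not a bound site, and the absence of one says only that these letters are not in the window.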

How the data were processed

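RNA of untreated CMPs and of OSKM-CMPs at days 4, 6 and 8 was measured on 1 single-colour array each, all on 1 slide and in 1 scan. The authors deposited Feature Extraction files (10.7.3.1 per the file headers, 9.5.3 per the labels) that give a background-subtracted Cy3 intensity, its error and flags for 62976 spots. The authors' normalized table, from GeneSpring, holds log2 values that equal the log2 processed signal minus a constant per array (100% of probes within 0.01), with column medians of -4.22, -4.08, -4.09 and -3.96.

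The 3671 control spots and 87 to 106 outlier spots per array were left out, and log2 processed signals were averaged over spots to give 55681 probes. From each array its 75th percentile, a signal of 388 to 411, was then subtracted. Of the probes, 56.6% to 59.6% were well above background on an array, and none was saturated. Kept were the 35543 probes that passed this limit on 1 array or more. Of these, 22843 had a name in the scanner files that is a RefSeq symbol or a synonym of only 1 symbol. They gave 16542 genes, 4995 of them with several probes and the mean of these. A gene of the set or of a list was counted as risen or fallen at 2-fold, and a gene below background on 1 side is given as a bound, against the lowest signal well above background on that array or its own signal, whichever was higher. Of the 10 genes, 8 were well above background with all probes on all 4 arrays. The number of arrays limits the precision, and the median error of a day 8 difference was 0.20 on the log2 scale.

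The genes of the set and the lists were chosen with earlier results of these data known. All 10 genes are named, with up to 3 rises and 3 falls per list among genes that passed this limit in untreated CMPs and at day 8, and the 5 genes nearest in course to the largest rise and fall measured on all 4 arrays. Others (Kera, Podn, Podnl1, Ogn, Omd, Ecm2, Cd36, Cd47, Stab2, Ptprz1, Itga4, Itga5, Igf1r, Anxa2, Fndc1, Tnn and the neighbours of the proteoglycan runs) were picked after their values were seen, or complete a count. The alternatives were scaling by the array median, quantile normalization with or without normexp (offset 50), the log2 values of the authors, leaving out the background limit or asking for it on all 4 arrays, raising dim values to a floor, taking a gene's brightest probe, naming by accession, and 1.5-fold as the threshold. The steps were tested on simulated data. Python 3.11.15, numpy 2.4.6, pandas 2.3.3, matplotlib 3.10.9, R 4.3.3 and limma 3.58.1 were used. Probe positions on mm9 come from the array files, and no genome of that build was used.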

Additional observations from a re-analysis of the deposited data

How the results depend on the processing

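No called difference of the 10 genes changed its direction under the alternatives run. Of the counts for the 10 genes, 73 stayed within 1.5 times and 7 moved, and of the list counts 107 stayed and 13 moved. Of the medians 27 stayed and 9 moved, and of the values for single genes 320 stayed and 32 moved. No single gene moved with the authors' values, naming by accession, no background limit or that limit on all 4 arrays. These settings reuse the same probe values up to a constant per array, so they could barely move one. Of 40 values, 11 moved with normexp, 9 with the array median and 7 with quantile normalization. With the floor 3 moved, and with the brightest probe 2. For medians and single genes the limit was not 1.5 times. The day 8 median counted as moved at 1.76 in place of 2.03. Thbs4 at day 4, with an error of 1.56, counted as stayed at 0.17 with normexp in place of 1.46. The count of genes that rose by day 8 was 7. It became 5 with the array median as the scale, and 6 with normexp and quantile normalization, with the floor and with the filter on all 4 arrays. At days 4 and 6 the count of 6 became 5 under each of these settings. The count of genes that fell was 2 on each day, and it became 1 at days 4 and 6 and 0 at day 8 with normexp and quantile normalization, 1 at day 8 with quantile normalization, and 1 on each day with probes above background on all 4 arrays, which leaves out Tnc and Thbs4. With normexp the median of the 10 genes was 0.63 at day 4, 1.03 at day 6, 1.17 at day 8 and 0.93 from day 4 to day 8. With the floor it was 0.57, 0.93, 1.06 and 1.01. With the array median as the scale it was 1.76 at day 8.

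In the families at day 8, 1 thrombospondin in place of 2 had fallen with normexp and with quantile normalization, and 1 tenascin in place of 2 had risen and 0 in place of 1 had fallen with normexp and with the filter on all 4 arrays. Of the other matricellular genes, 5 in place of 8 had risen and 4 in place of 2 had fallen with the array median, and 8 had fallen at 1.5-fold. Of the receptors, 2 in place of 4 had risen with normexp and 1 with the filter on all 4 arrays, and 13 in place of 7 had fallen with the array median and 14 at 1.5-fold. The array median moved the median of all genes to -0.30 at day 8 and the share of rises among changed genes from 55.25% to 40.04%. The offset of normexp pulls dim signals together. Signal over background limits Thbs4, for which the day 8 difference was 0.38 with normexp and 0.90 with the floor, and Tnc. No paired analysis was possible because there is a single array per condition.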
